A study of Mus musculus with 12 samples.

Results

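The Ly6 family of mouse lymphocyte surface proteins was followed in CD8+ T cells, with Ly6a, the gene of Sca-1, as its central member. The 9 members (Ly6a, Ly6c1, Ly6c2, Ly6d, Ly6e, Ly6f, Ly6h, Ly6i and Ly6k) were chosen by gene symbol, not by a measured value. They had 11 probes on the array, 9 of which were kept, each flagged as well above background by the scanner software for 2 or more of the 12 arrays. The kept probes stood for 8 members, out of 13882 named genes and 25738 features tested in all. Both probes of Ly6h were dropped, so that member has no value here.

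RNA from each sample was measured on 1 Agilent 1-colour array. Total CD8+ T cells came from female C57BL/6 mice that were wild type (WT, 4 arrays), AID KO (2 arrays) or uMT (2 arrays). Each knockout had 1 array from peripheral lymph nodes (PLN) and 1 from the gut-draining mesenteric lymph nodes (MLN), and WT had 2 arrays from each node. Naive CD8+ T cells, sorted for low CD44, came from PLN of AID KO and uMT mice only, with 1 array each for the fractions labelled Sca1p and Sca1m. These are read here as Sca-1 positive and Sca-1 negative from the sorting described in the labels. AID is the deaminase that B cells use for class switching and somatic hypermutation, and the uMT mutation disrupts membrane IgM and so leaves mice without mature B cells. Both are changes of the whole animal rather than of T cells. Genotypes are given as labelled, and directions for the groups labelled AID KO rest on that label. Ages, and whether samples came from separate or pooled animals, are not given in the sources used here. Replicates are absent by the submitters' own account, so p-values measure how far these arrays depart from the fitted terms, a spread that may be partly technical.

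The arrays lay on 3 slides of 4. Each slide of total cells held 2 WT and 2 knockout arrays, so every knockout array had a WT array of its node on its own slide. The 4 naive arrays filled the remaining slide, where cell type and slide cannot be told apart, and naive cells were therefore not compared with total cells.

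Ly6 proteins are small, cysteine-rich proteins, most of them held in the outer membrane by a glycosylphosphatidylinositol (GPI) anchor. Ly6a marks haematopoietic stem cells, and in T cells it is induced by activation and by interferons. Ly6C, the product of the near-identical genes Ly6c1 and Ly6c2, is known from memory CD8+ T cells and monocytes. Ly6e is a broadly expressed interferon-inducible member, Ly6d is known from lymphoid progenitors entering the B lineage, Ly6k from male germ cells and Ly6h from the brain.

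The share of spots well above background ran from 50.1% to 56.8% over the arrays, and 75th percentiles of intensity ran from 431.5 to 786.9. All 8 CD8 T cell markers examined, among them Cd8a, Cd8b1 and Cd3e, were well above background on all 12 arrays. The B cell gene Ms4a1 was well above background on 1 array at most and Ebf1 on none. The measured B cell genes (6 of 10) summed to 445.2 to 531.2% of the array's 75th percentile in WT, 645.7 to 708.6% on arrays labelled AID KO and 514.9 to 594.7% in uMT total cells. Cd79b, at 1.93 to 2.73 log2 units above that percentile over the 12 arrays, made up most of these sums. By fitted difference from WT, 1 of the 6 genes was higher in uMT, with a median of -0.30. On arrays labelled AID KO 6 of 6 were higher, with a median of 0.36. The measured NK cell genes (3 of 4) summed to 274.3 to 470.5% in WT, 180.6 to 202.1% on arrays labelled AID KO and 337.4 to 732.4% in uMT. The measured erythroid genes (2 of 5) summed to 8.36 to 256.2% in WT, 19.7 to 110.7% on arrays labelled AID KO and 73.5 to 490.1% in uMT. The sum of the measured monocyte and macrophage genes (5 of 9) was lower on every knockout array than on any WT array. It ran from 310.9 to 383.0% in WT, 196.7 to 295.9% on arrays labelled AID KO and 233.0 to 310.0% in uMT. That holds for the sum only. By fitted difference from WT, 2 of the 5 genes were higher on arrays labelled AID KO and 2 of 5 in uMT. No gene of the 10 marker lists passed the test in any of the 8 comparisons, and the part of these cells in the Ly6 differences was not tested. In sorted populations measured in bulk, fewer cells that express a gene and less RNA per cell cannot be told apart.

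All 9 members lie on chromosome 15 in the RefSeq gene table (assembly GRCm38.p6), in the order Ly6d, Ly6k, Ly6e, Ly6i, Ly6a, Ly6c1, Ly6c2, Ly6f and Ly6h. RefSeq promoter windows of that assembly matched 3 members, Ly6c1, Ly6c2 and Ly6f. They are shown because they are the members for which a window was given. The Ly6c1 and Ly6c2 signals are alike and are read together. Probe sequences were not among the sources used here, so whether the probes share targets was not tested. The promoter sequences do not bear on it. Each line holds the 250 bases before the outermost start, 5′ to 3′ on the gene's strand, and capitals mark the only run of at least 12 bases that all 3 share. Ly6c1 is at chr15:75048838-75049087 on the minus strand, Ly6c2 at chr15:75111972-75112221 on the minus strand and Ly6f at chr15:75268171-75268420 on the plus strand.
Ly6c1: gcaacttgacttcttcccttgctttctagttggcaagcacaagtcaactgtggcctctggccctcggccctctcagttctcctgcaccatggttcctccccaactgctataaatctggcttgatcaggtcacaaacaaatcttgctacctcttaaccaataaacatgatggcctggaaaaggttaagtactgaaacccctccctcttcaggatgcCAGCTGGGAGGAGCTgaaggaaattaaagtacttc
Ly6c2: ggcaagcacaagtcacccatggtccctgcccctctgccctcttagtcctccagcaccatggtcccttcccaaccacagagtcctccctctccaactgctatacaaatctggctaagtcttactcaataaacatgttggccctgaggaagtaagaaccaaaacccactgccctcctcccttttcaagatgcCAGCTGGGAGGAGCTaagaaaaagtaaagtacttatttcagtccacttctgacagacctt
Ly6f: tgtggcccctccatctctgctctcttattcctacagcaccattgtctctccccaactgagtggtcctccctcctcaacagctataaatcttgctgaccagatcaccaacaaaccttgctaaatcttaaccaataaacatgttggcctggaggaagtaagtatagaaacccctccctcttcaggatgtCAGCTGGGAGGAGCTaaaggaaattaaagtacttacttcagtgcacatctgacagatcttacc

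The shared run of 15 bases began 35 bases before the start in Ly6c1, 60 in Ly6c2 and 63 in Ly6f. On either strand it was found in 7 of 32851 promoter windows (0.0213%), which belonged to Ly6c1, Ly6c2, Ly6f, Ly6a2 and Clcn5. In gapped alignments of the 250 bases, Ly6c1 and Ly6c2 were identical at 59.9% of 284 columns, Ly6c1 and Ly6f at 65.6% of 279, and Ly6c2 and Ly6f at 67.7% of 263. Both motifs searched, the interferon-stimulated response element as TTTC, any 2 bases and TTTC, and the gamma-activated site as TTC, any 3 bases and GAA, were without a match on either strand in the 5 windows of these genes. They were found in 3.44% and 8.30% of all windows. No match says only that these letters are not in these windows.

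Ly6a was higher in both knockouts than in WT total cells, and the differences were larger in the mesenteric node, although that excess did not pass its test. Signals are in log2 units relative to the 75th percentile of the array. The 2 WT PLN arrays stood at 1.92 and 1.64 and the 2 WT MLN arrays at 1.78 and 1.46. The arrays labelled AID KO stood at 2.41 in PLN and 2.71 in MLN, and the uMT arrays at 2.20 in PLN and 3.53 in MLN. All 4 knockout arrays therefore lay above all 4 WT arrays.

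In the order of the 8 total-cell arrays, the 4 WT arrays came lowest, with PLN and MLN interleaved and steps of 0.14 to 0.18 between neighbours. The uMT PLN array followed 0.28 above the highest WT array, then the PLN array labelled AID KO 0.21 higher and the MLN array with that label 0.31 higher. Those steps are about the size of the differences between WT arrays of 1 node, which were 0.28 in PLN and 0.32 in MLN and lie between slides. Against the WT array of the same node and slide, the arrays labelled AID KO were 0.49 higher in PLN and 1.26 in MLN. The uMT arrays were 0.56 and 1.74 higher. The uMT MLN array stood apart, 0.81 above the next.

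**Figure D1:**
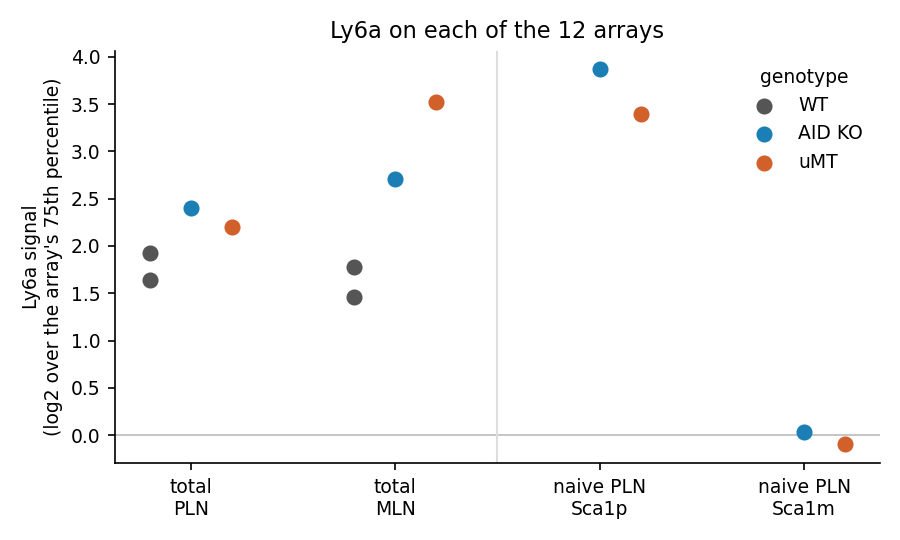
Signal of Ly6a in log2 units relative to the array's 75th percentile, 1 point for each of the 12 arrays, coloured by genotype. The WT arrays lie between 1.46 and 1.92, the knockout total-cell arrays between 2.20 and 3.53, and the naive Sca1m arrays at 0.03 and -0.10. The line separates total cells from naive cells, which were on another slide.

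In the limma fit over all arrays, Ly6a was 0.86 ± 0.27 log2 units (SE) higher on arrays labelled AID KO than in WT, or 1.82-fold (adjusted p = 0.232). In uMT it was 1.16 ± 0.27 units higher, or 2.24-fold (adjusted p = 0.153). Neither value passed the threshold of 0.05 after Benjamini-Hochberg adjustment over all features, and these comparisons share the 4 WT arrays. The value for the label AID KO was 0.48 without the MLN array labelled AID KO, and the uMT value was 0.57 without the uMT MLN array. Across nodes, MLN against PLN gave 0.33 ± 0.22 (adjusted p = 0.740). In that comparison the WT arrays differed by -0.14 and -0.18, those labelled AID KO by 0.31 and those from uMT by 1.33. Each WT pair lay on 1 slide, but each knockout pair crossed slides, so node and slide are not separated in those 2 values. The crossings run in opposite directions, and WT arrays of 1 node differed between slides by 0.28 in PLN and 0.32 in MLN. The 0.31 and 1.33 are therefore not like measures.

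Of the 8 measured members, 0 passed on the arrays labelled AID KO versus WT, where 0.894% of all features did, and 0 in uMT versus WT, where 0.035% did. An unadjusted p under 0.05 was reached by 2 members in each, Ly6a and Ly6k, against 14.4% and 17.8% of all features. By fitted value, all 8 members were higher on arrays labelled AID KO, beside 51.9% of all features, with a median of 0.22 beside 0.01. In uMT 7 of 8 were higher, beside 49.4% of all features, with a median of 0.21. These counts include the dim Ly6i and take Ly6c1 and Ly6c2 separately, although they are read together. For the label AID KO, Ly6c1, Ly6c2 and Ly6i were higher in only 1 of the 2 pairs of knockout and WT arrays of the same node and slide. Members whose knockout arrays did not overlap the WT arrays and were higher numbered 2 on arrays labelled AID KO, beside 9.22% of all features, and 3 in uMT, beside 10.1%. The first were Ly6a and Ly6k, and the second were these and Ly6f. In MLN versus PLN, 0 of 8 members passed in the limma fit, beside 0.105% of all features, and 0 had an unadjusted p under 0.05, beside 9.13%.

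The split by node was then fitted with both knockout labels as 1 group, 2 knockout arrays against 2 WT arrays in each node. In MLN, Ly6a was 1.5 ± 0.14 log2 units higher in the knockouts, or 2.83-fold, which fell just short of the threshold (adjusted p = 0.0502). It ranked 62 of 25738 features by p. The MLN array labelled AID KO exceeded the WT array of its slide by 1.26 and the uMT MLN array by 1.74. With a normexp background correction the adjusted p was 0.00545, and on the authors' deposited values it was 0.0336, so Ly6a passed under both. Over the other planned settings together with these the adjusted p ran from 0.00545 to 0.257, and with 1 array left out from 0.120 to 0.738.

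In PLN the same difference was 0.52 ± 0.14, or 1.44-fold (adjusted p = 0.423). It was 0.32 without the PLN array labelled AID KO and 0.73 without the uMT PLN array. These 2 fits took the difference between the knockout genotypes from MLN, so they do not show the remaining PLN array alone. The single-array differences were 0.49 for the label AID KO and 0.56 for uMT. The excess of the MLN over the PLN difference was 0.98 ± 0.19 and did not pass (adjusted p = 0.689), and it ran from 0.77 to 1.18 with 1 array left out. That range includes fits without 1 knockout array, which took the genotype difference from the other node. In MLN, 0 of 8 members passed and 4 had an unadjusted p under 0.05 (Ly6a, Ly6k, Ly6f and Ly6c1), beside 0.237% and 13.5% of all features. Ly6c1 did so on its brighter probe only, since the limma p was 0.078 on its second probe and 0.090 for Ly6c2. The Ly6f value rests in part on a WT MLN array that was not well above background. In PLN, 0 passed and 2 had an unadjusted p under 0.05 (Ly6a and Ly6k), beside 0% and 8.75%. Of the 8 members, 7 lay higher without overlap in MLN, all but Ly6i, where 15.1% of all features did. Among them Ly6e cleared the WT MLN arrays by only 0.01 and Ly6d by 0.02. These counts take Ly6c1 and Ly6c2 separately, although their probes cannot be told apart. In PLN 2 lay higher without overlap, Ly6a and Ly6k, where 13.2% did, and 2 lower, Ly6c1 and Ly6c2, where 11.7% did. The second Ly6c1 probe overlapped in PLN. For the excess itself, 0 members passed and only Ly6a had an unadjusted p under 0.05, beside 0% and 4.29% of all features.

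**Figure D2:**
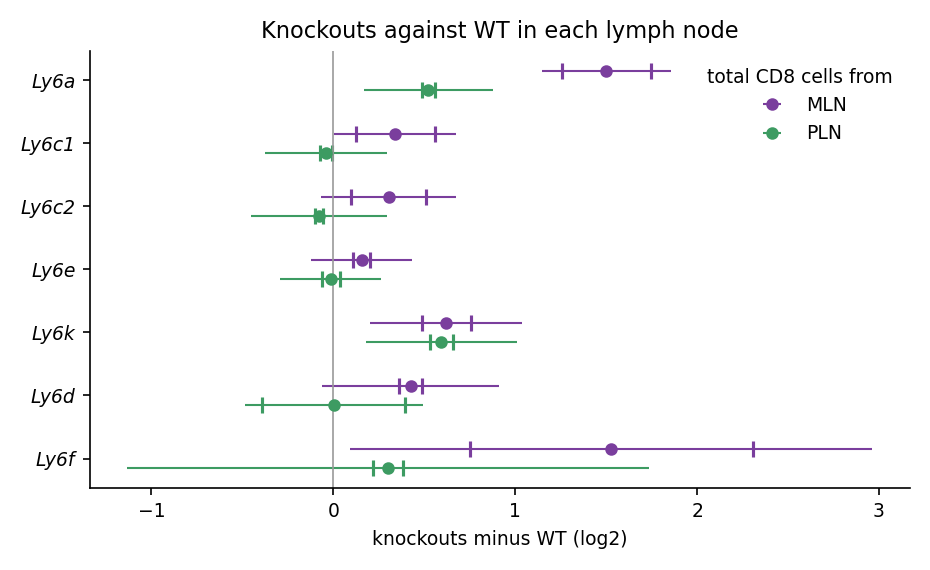
Difference between knockouts and WT in log2 units for 7 members in MLN and PLN total CD8+ cells. Circles are fitted values with their 95% confidence intervals and ticks are the single knockout arrays, each minus the WT array of its node and slide. Ly6a lies at 1.5 in MLN and 0.52 in PLN, while Ly6k lies at 0.62 and 0.59.

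The type I interferon response list showed where other interferon-inducible genes stood beside Ly6a. Of its 44 genes 40 were tested. In the MLN comparison 16 rose and 0 fell, and all 40 were higher, with a median of 0.89 beside 0.01 for all features. The largest were Ifi44 at 3.57 ± 0.18 (adjusted p = 0.0192), the antiviral gene Rsad2 at 3.37 ± 0.11 (0.0192) and Ifit3b, of the family that binds viral RNA, at 2.92 ± 0.16 (0.0202). With any 1 array left out, at most 2 of all features passed in this comparison and 0 of them were higher, so none of these 16 calls held in those smaller fits. None of them held with blocks of matched arrays or without the filter on dim probes either, where 0 features passed.

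In PLN 0 of the 40 genes passed, 4 had an unadjusted p under 0.05, all lower, and the median was -0.11 with 6 of 40 higher. On the PLN array labelled AID KO the list's median was -0.20 with 5 of 40 higher, beside 0.49 for Ly6a. In uMT PLN it was -0.01 with 19 of 40 higher, beside 0.56 for Ly6a. In MLN the list's median was 0.71 for the label AID KO and 1.26 for uMT, beside 1.26 and 1.74 for Ly6a. Between nodes the list was lower in both WT MLN arrays than in WT PLN, at -0.33 and -0.30, and higher in the MLN arrays labelled AID KO and uMT, at 0.62 and 1.04. The WT differences lie within a slide, but each knockout difference crosses slides, so node and slide are not separated in it.

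**Figure D3:**
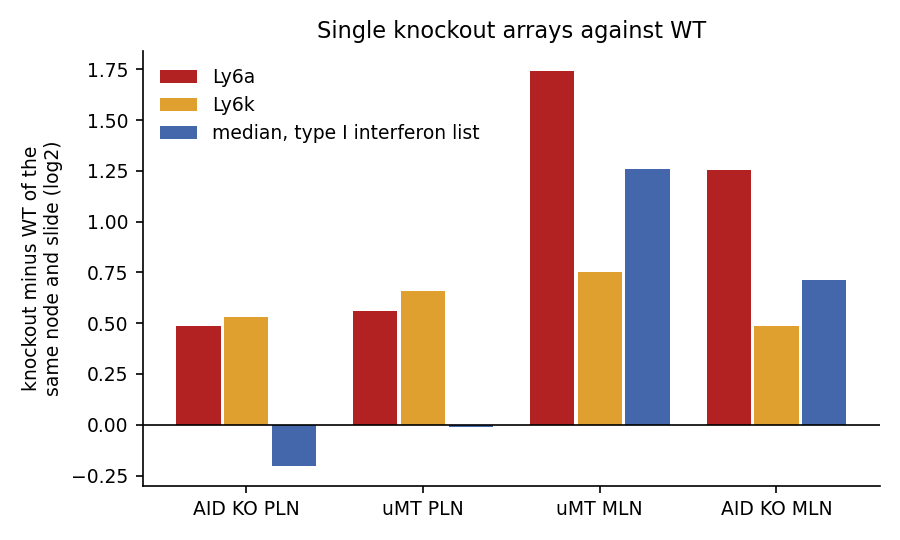
Difference of each knockout total-cell array from the WT array of its node and slide in log2 units, for Ly6a, Ly6k and the median of the 40 tested genes of the type I interferon list. Bars start at 0. Ly6a is at 0.49 and 0.56 in PLN while the list is at -0.20 and -0.01, and both are higher in MLN.

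Ly6k, a member known from male germ cells, gave the most even difference between knockouts and WT. It was well above background on all 12 arrays, at -0.64 and -0.62 on the WT PLN arrays and -0.74 and -0.62 on the WT MLN arrays. The arrays labelled AID KO stood at -0.11 in PLN and -0.14 in MLN, and the uMT arrays at 0.04 and 0.01. No knockout array overlapped the WT arrays, and WT arrays of 1 node differed by 0.02 in PLN and 0.12 in MLN. Ly6k was 0.53 ± 0.13 higher on arrays labelled AID KO (adjusted p = 0.134) and 0.68 ± 0.13 higher in uMT (adjusted p = 0.119).

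By node, the Ly6k difference was 0.62 ± 0.16 in MLN (adjusted p = 0.258) and 0.59 ± 0.16 in PLN (adjusted p = 0.431). The excess of MLN over PLN was 0.03 ± 0.23, with a 95% interval from -0.56 to 0.61, which includes differences of about the size of the knockout effect itself. On the naive arrays Ly6k stood at -0.16 and -0.20 in Sca1p and at -0.54 and -0.0048 in Sca1m, so the fractions overlapped.

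Ly6c1 and Ly6c2 could not be told apart by their probes. The brighter Ly6c1 probe and the Ly6c2 probe correlated at 0.998 over the 12 arrays and differed by -0.01 to 0.23 log2 units on any of them. A second Ly6c1 probe correlated with the Ly6c2 probe at 0.995. These correlations describe arrays that share the slide and cell groups. The genes are near-identical copies, and each value is therefore read as that of Ly6c1 and Ly6c2 together.

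The Ly6c1 signal stood at 6.55 and 6.55 in WT PLN and 6.24 and 6.29 in WT MLN. The knockouts were at 6.54 and 6.48 in PLN, for the label AID KO and uMT, and at 6.41 and 6.80 in MLN. In MLN both knockout arrays were above both WT arrays, and in PLN both were below. On the second Ly6c1 probe the PLN arrays overlapped, with WT at 4.85 and 4.70 and the knockouts at 4.81 and 4.72. The fitted difference on the brighter Ly6c1 probe was 0.34 ± 0.13 in MLN (adjusted p = 0.365) and -0.04 ± 0.13 in PLN (adjusted p = 0.964). For Ly6c2 it was 0.30 ± 0.14 in MLN and -0.08 ± 0.14 in PLN. Without the uMT MLN array the MLN difference was 0.09 for Ly6c1 and 0.07 for Ly6c2, and without the MLN array labelled AID KO it was 0.59 and 0.53. These fits took the difference between the knockout genotypes from PLN. The single-array differences in MLN were 0.12 and 0.10 for the label AID KO and 0.56 and 0.51 for uMT.

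Ly6e, the broadly expressed member, varied least among the 8 total-cell arrays. It stood at 5.51 and 5.39 in WT PLN, 5.49 and 5.39 in WT MLN, 5.55 and 5.50 on arrays labelled AID KO and 5.33 and 5.69 in uMT, PLN before MLN. The knockouts overlapped WT in PLN. In MLN the difference was 0.16 ± 0.11 (adjusted p = 0.562), and the WT arrays of 1 node differed between slides by 0.12 in PLN and 0.10 in MLN.

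Ly6d, known from lymphoid progenitors, was well above background on all arrays. It stood at -2.80 and -2.25 in WT PLN and -2.96 and -2.49 in WT MLN. The arrays labelled AID KO were at -2.40 and -2.13 and the uMT arrays at -2.64 and -2.47, PLN before MLN. WT arrays of 1 node differed between slides by 0.55 and 0.47, both higher on the same slide, and the fit holds a slide term. The fitted differences were 0.36 ± 0.18 on arrays labelled AID KO (adjusted p = 0.458) and 0.07 ± 0.18 in uMT (adjusted p = 0.865). Within slides, the arrays labelled AID KO differed from WT by 0.40 in PLN and 0.36 in MLN. The uMT arrays differed by -0.39 and 0.49.

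Ly6f was dim and was well above background on 10 arrays. In total cells it stood at -4.92 and -4.45 in WT PLN and at -4.57 on 1 WT MLN array, while the other WT MLN array, at -6.17, was not well above background. The arrays labelled AID KO were at -4.70 in PLN and -3.82 in MLN, and the uMT arrays at -4.06 and -3.87. The MLN difference of 1.53 ± 0.56 (adjusted p = 0.351) rests in part on the array that was not measured, since the single-array differences were 0.75 for the label AID KO and 2.31 for uMT, the latter against that array. In PLN the difference was 0.30 ± 0.56 (adjusted p = 0.932).

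Ly6i was well above background on 4 arrays only, the MLN array labelled AID KO at -4.38, uMT PLN at -4.56, 1 WT MLN array at -4.64 and the naive Sca1p array labelled AID KO at -4.42. No group had it on all its arrays apart from groups of 1 array, and no difference is given. The 2 Ly6h probes were well above background on 0 and 1 array.

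**Figure D4:**
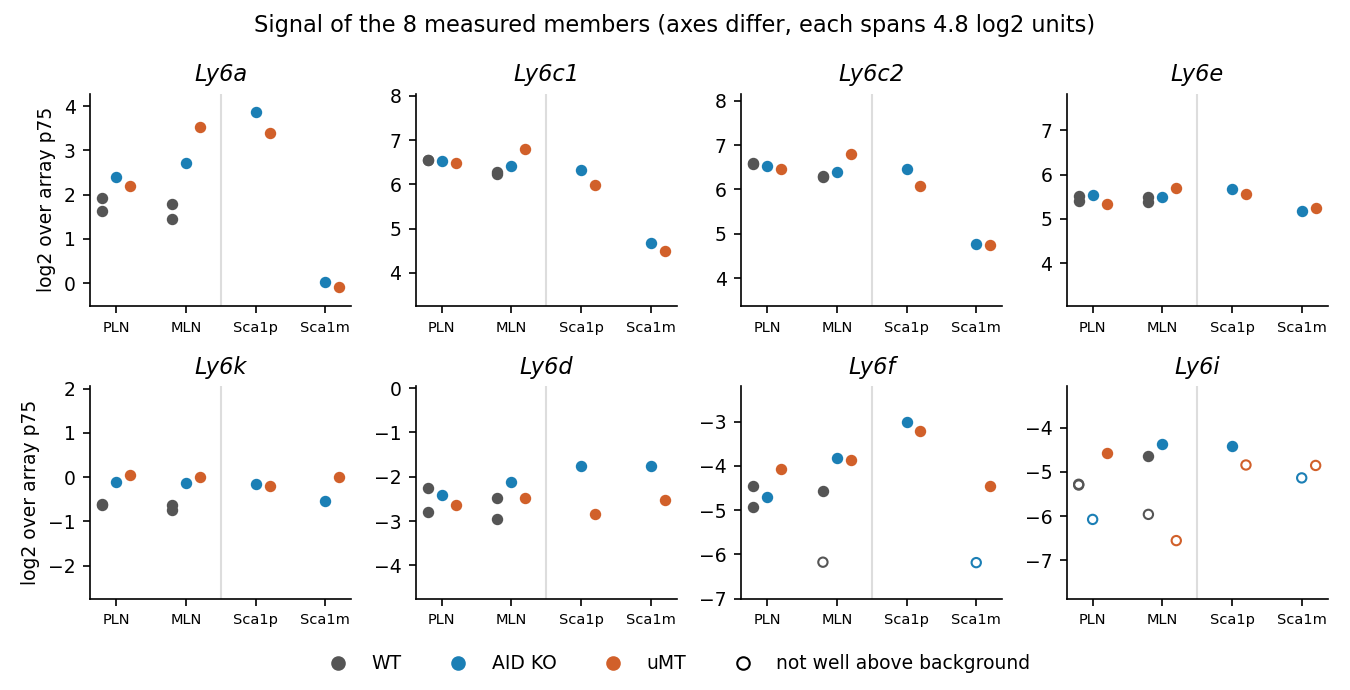
Signal of the 8 measured members in log2 units relative to the 75th percentile of its array, 1 point for each array, by node for total cells and by fraction for naive cells. Open circles are arrays on which the probe was not well above background. Every panel spans the same number of log2 units around its own middle, and levels of different probes are not comparable.

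Among naive PLN cells, the fraction sorted for Sca-1 carried far more Ly6a signal, which is the sort itself. Ly6a stood at 3.87 and 3.40 on the Sca1p arrays, for the label AID KO and uMT, and at 0.03 and -0.10 on the Sca1m arrays. The difference was 3.67 ± 0.31, or 12.7-fold (adjusted p = 0.0734). It served as the check of the sort labels and is no finding.

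The Ly6C signal was higher on both Sca1p arrays than on either Sca1m array. Ly6c1 stood at 6.33 and 5.97 in Sca1p and at 4.68 and 4.50 in Sca1m. Ly6c2 stood at 6.46 and 6.07 in Sca1p and at 4.76 and 4.74 in Sca1m. The fractions did not overlap in either genotype. Ly6c1 was 1.56 ± 0.16 higher in Sca1p, or 2.95-fold, and Ly6c2 1.51 ± 0.17 higher, or 2.86-fold (both adjusted p = 0.0910). The second Ly6c1 probe gave 1.42 ± 0.15. With the normexp correction the adjusted p of Ly6c1 was 0.0118 and that of Ly6c2 0.0173, and on the authors' deposited values both were 0.0358, so these genes passed under both settings. Summed genes of other cell types also differed between the fractions without overlap, in both directions. The measured neutrophil genes (4 of 7) summed to 121.6 to 144.2% of the 75th percentile in Sca1p and 81.3 to 88.5% in Sca1m. The measured CD4 T cell genes (3 of 4) summed to 351.1 to 367.7% and 280.6 to 296.1%. Of these genes, 3 of the 4 and 2 of the 3 were higher in Sca1p. The erythroid sum was also higher, at 14.6 to 15.6% and 13.1 to 13.2%. Lower in Sca1p were the NK cell sum, at 2.65 to 3.74% and 5.90 to 7.39%, and the plasma cell sum, at 3.72 to 4.53% and 5.56 to 6.14%. No NK or plasma cell gene was well above background on these arrays. Their part in the Ly6C difference was not tested.

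The other members gave smaller or less certain differences between the fractions. Ly6e stood at 5.68 and 5.57 in Sca1p and 5.17 and 5.25 in Sca1m, without overlap, and was 0.41 ± 0.11 higher in Sca1p (adjusted p = 0.392). Ly6f stood at -3.02 and -3.22 in Sca1p, and in Sca1m at -4.46 in uMT and -6.18 on the array labelled AID KO, where it was not well above background. Its difference of 2.21 ± 0.62 (adjusted p = 0.420) therefore rests on 1 measured Sca1m array. Ly6d differed by -0.17 ± 0.21 and Ly6k by 0.09 ± 0.15.

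Ly6a is left out of the counts between the fractions, since the sort fixed its direction. Of the other 7 measured members 0 passed, beside 0.0155% of all features, and 4 had an unadjusted p under 0.05, beside 8.37%. These 4 were Ly6c1, Ly6c2, Ly6e and Ly6f, of which the first pair are read together. Without overlap and higher in Sca1p were 5 members, these and Ly6i, which was well above background on 1 of the 4 arrays, beside 18% of all features. The interferon list was tested alongside, and 35 of its 40 genes were higher in Sca1p with a median of 0.20 and 0 called. In the effector and memory list, with 32 of 33 genes tested, 1 gene rose and 0 fell. It was Cxcr3, a chemokine receptor of memory and effector CD8+ T cells, at 2.13 ± 0.11 (adjusted p = 0.0205). That call was lost in 10 of the 12 fits that left out 1 array, those without any of the 8 total-cell arrays among them, with blocks of matched arrays and without the filter on dim probes, with an adjusted p of up to 0.137.

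Between the naive genotypes, Ly6d gave the largest difference among members that were well above background on all arrays. It stood at -1.75 on both arrays labelled AID KO and at -2.85 and -2.52 on the uMT arrays, Sca1p before Sca1m, with no overlap. It was 0.93 ± 0.21 lower in uMT, or 0.525-fold (adjusted p = 0.230). The 6 measured B cell genes of 10 summed to 714.8 and 550.9% of the 75th percentile on the arrays labelled AID KO and 467.1 and 513.7% on the uMT arrays, in the same order, and their part in this difference was not tested. Ly6a differed by -0.30 ± 0.31 (adjusted p = 0.943) and Ly6c1 by -0.27 ± 0.16 (adjusted p = 0.780). Of the 8 members 0 passed, beside 0.35% of all features, and Ly6d alone had an unadjusted p under 0.05, beside 8.91%. Ly6d was also the member lower without overlap, beside 13.7% of all features.

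The wider Ly6/uPAR family gave few calls. Of 38 further genes 14 were tested, among them Lynx1, Gpihbp1 and Plaur. Plaur, the urokinase receptor, fell by 1.04 on the log2 scale on the arrays labelled AID KO versus WT (adjusted p = 0.0481), and 0 of the 14 passed in any of the other 7 comparisons. The Plaur call was lost in all 12 fits that left out 1 array and in 4 of 7 other settings, with an adjusted p of up to 0.470. The median over the 14 was -0.03 for the arrays labelled AID KO against WT and 0.06 in Sca1p versus Sca1m.

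The genes that build and attach GPI anchors, on which most Ly6 proteins depend, gave 0 calls in all 8 comparisons with 26 of 29 tested. Their median was 0.12 on arrays labelled AID KO and 0.17 in uMT versus WT, and -0.11 in Sca1p versus Sca1m with 5 of 26 higher. Of 12 other GPI-anchored T cell proteins 10 were tested. Nt5e, the ectonucleotidase CD73, rose by 1.05 ± 0.07 in MLN versus PLN (adjusted p = 0.0127), and it was the single call in the 8 comparisons. It was lost without any 1 of the 8 total-cell arrays and without the filter on dim probes, with an adjusted p of up to 0.177.

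The effector and memory list had a median of 0.03 on the arrays labelled AID KO versus WT, where the NKG2D gene Klrk1 rose by 2.09 ± 0.25 (adjusted p = 0.0324). Bhlhe40 fell by 1.56 (adjusted p = 0.00743) and Ifng, the interferon-gamma gene, by 1.47 (adjusted p = 0.0257). With 1 array left out Klrk1 passed in 4 of 12 fits, Bhlhe40 in 8 and Ifng in 6. Each of these calls was lost without either total-cell array labelled AID KO and with blocks of matched arrays. In uMT versus WT the list's median was 0.14 with 0 calls. In MLN versus PLN Anxa1 fell by 1.54 (adjusted p = 0.0379) on a probe well above background on 4 arrays. That call held in 2 of 12 fits with 1 array left out and in 2 of 5 other settings, with an adjusted p of up to 0.433. In naive uMT against the arrays labelled AID KO, Klrk1 fell by 4.84 (adjusted p = 0.00615), on a probe well above background on 10 arrays. This call held with any 1 array left out, and with the normexp correction the difference was -1.90 (adjusted p = 0.0651).

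Of 38 non-member genes between and beside the members on chromosome 15, 8 were measured, and 0 passed in any of the 8 comparisons. In MLN their differences between knockouts and WT ran from -0.38 to 1.13 with a median of 0.21. The highest, 9030619P08Rik, lies between Ly6f and Ly6h and was chosen after its values were seen. It was 1.13 higher in the knockouts in MLN (adjusted p = 0.125), 0.28 higher in PLN (adjusted p = 0.711) and 2.52 higher in Sca1p than in Sca1m (adjusted p = 0.0910). The other 7 measured neighbours lay below 1 log2 unit in each of these comparisons.

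Genes with the pattern most like Ly6a over the 8 total-cell arrays were ranked by Pearson correlation, among 2213 named genes with an SD of at least 0.3. They were Cdc42se1 (0.98), Gm12250 (0.97), Cd200r4 (0.97), Rgs12 (0.96) and Trim34a (0.96). For Ly6e they were Gbp2 (0.99), an interferon-inducible GTPase, 4930503L19Rik (0.97), Parp14 (0.95), Edem1 (0.95) and B3gnt2 (0.95). For Ly6c1 they were Ifngas1 (0.90), 4921524J17Rik (0.90), Lrrc8c (0.89), Gng10 (0.89) and Ifit3b (0.87), and Ly6c2 shared Lrrc8c, 4921524J17Rik, Gng10 and Ifngas1 with it, at 0.91, 0.88, 0.88 and 0.88. These values describe 8 arrays that share slides and groups, with the uMT MLN array at the top of Ly6a, Ly6c1, Ly6c2 and Ly6e alike. Among members, Ly6a correlated over the same arrays with Ly6k at 0.79, Ly6e at 0.76 and Ly6c1 at 0.71.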

How the data were processed

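Per the file headers, Feature Extraction 11.0.1.1 made the deposited scanner files, with a processed intensity for every spot and no scaling between arrays. Its correction steps are not given in the sources used here. Flags of 0 or 1 (well above background, saturated, outlying) are the other deposited values. The log2 values of the authors' series matrix hold, within each slide, the same sorted values on all 4 arrays, to within 0.0021, and served as an alternative.

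Here, log2 processed intensity was shifted by each array's 75th percentile. Outlier spots, 61 to 342 per array, were left out, and 0 spots were saturated. Probes were named by accession through RefSeq (GRCm38.p6). Of 56605 probes 32994 had 1 symbol, 0 several and 23611 none. The brightest of a gene's kept probes stood for it. limma 3.58.1 (R 4.3.3) fitted node, slide and genotype in total cells and genotype and fraction in naive cells, with 4 residual degrees of freedom, or 3 with separate node terms. P-values are two-sided, were adjusted over all features by Benjamini-Hochberg, and the code was tested on simulated data. Values after ± are standard errors.

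Gene lists are described by counts and medians. Of each, up to 3 called genes are named, those with the largest change. Likeness is the Pearson correlation over total-cell arrays. Members and lists were chosen with earlier results of these data known. Some genes are not reported here. Alternatives were a normexp background (on the median spot signal, since the files used here have no mean signal), quantile normalization, the authors' values, no filter on dim probes, no slide term, the mean of a gene's probes, blocks of matched arrays, and each array left out.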

Additional observations from a re-analysis of the deposited data

Results flagged for a closer look

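On the probes that stood for them, Ly6c1 and Ly6c2 moved in opposite directions in the 2 nodes. Each knockout array was set against the WT array of its node and slide. In MLN both knockout arrays were above WT, with a mean of 0.34 for Ly6c1 and 0.30 for Ly6c2. In PLN both were below, with a mean of -0.042 for Ly6c1 and -0.079 for Ly6c2. The second Ly6c1 probe did not show this in PLN. On it the uMT PLN array, at 4.72, lay above the WT array of its slide, at 4.70. The PLN array labelled AID KO lay below, at 4.81 against 4.85, and the fitted PLN difference was -0.01 ± 0.13. With the normexp background the PLN difference of Ly6c2 was 0.058. Without the uMT MLN array the MLN difference was 0.09 for Ly6c1 and 0.07 for Ly6c2. That fit took the difference between the knockout genotypes from PLN. The MLN array labelled AID KO was itself 0.12 and 0.10 above its WT array. The PLN differences are small beside the standard errors of 0.13 and 0.14. The limma test of the difference between nodes gave 0.38 ± 0.18 for Ly6c1 and 0.38 ± 0.20 for Ly6c2, and neither passed (both adjusted p = 0.999). As these probes cannot be told apart, they count as 1 observation.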

How the results depend on the processing

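Of 1055 recomputed differences of 7 members, 1001 kept their direction and their side of the threshold, 8 passed it newly and 46 changed sign. The members that passed numbered 3 in Sca1p versus Sca1m (Ly6a, Ly6c1 and Ly6c2) and 1 in the MLN comparison (Ly6a), each both with the normexp background and on the authors' values. Between the fractions Ly6a is the sort itself and no finding, and Ly6c1 and Ly6c2 are read together. No other planned setting gave a call among members. All changes of sign were of differences that had not passed. Ly6a kept its sign in every comparison and setting. Versus WT, Ly6c2 in AID KO was -0.014 with quantile normalization and -0.015 on the authors' values, and Ly6e in uMT was -0.031 and -0.028. With the normexp background Ly6d was -0.020 in MLN versus PLN and -0.038 in the PLN comparison, Ly6c2 was 0.058 in the latter and Ly6f -0.018 in naive uMT versus AID KO. With quantile normalization Ly6d was -0.0067 in MLN versus PLN and Ly6e 0.00018 in naive uMT versus AID KO. With 1 array left out the ranges that crossed 0 were, for AID KO versus WT, -0.018 to 0.14 (Ly6c1) and -0.053 to 0.11 (Ly6c2). For uMT versus WT they were -0.084 to 0.55 (Ly6c1), -0.11 to 0.50 (Ly6c2), -0.37 to 0.51 (Ly6d) and -0.070 to 0.20 (Ly6e). For MLN versus PLN they were -0.21 to 0.13 (Ly6d) and -0.56 to 0.31 (Ly6f), and for Sca1p versus Sca1m -0.19 to 0.38 (Ly6k). For naive uMT versus AID KO they were -0.11 to 0.081 (Ly6e), -0.20 to 1.72 (Ly6f) and -0.033 to 0.53 (Ly6k). For knockouts versus WT they were -0.030 to 0.88 (Ly6d) in MLN, and in PLN -0.29 to 0.21 (Ly6c1), -0.31 to 0.15 (Ly6c2), -0.45 to 0.46 (Ly6d), -0.11 to 0.083 (Ly6e) and -0.39 to 1.00 (Ly6f). For the excess of MLN over PLN they were -0.033 to 0.88 (Ly6d) and -0.044 to 0.095 (Ly6k). Where this left 1 array in a group, it was assumed to vary like the others. With 1 knockout array left in a node, the fits by node took the difference between the knockout genotypes from the other node. Their values are therefore not those of the remaining array alone. Ly6d reached -0.030 in MLN although its single-array differences there were 0.36 and 0.49. Ly6f reached -0.39 in PLN although its own were 0.22 and 0.38. Other causes of the changes of sign were not tested. Over all features, calls in the MLN comparison numbered 61, ran from 0 to 98 over the other settings and from 0 to 2 with 1 array left out. Those in AID KO versus WT numbered 230, ran from 15 to 424, and from 1 to 163 with 1 array left out. The calls in the other comparisons, over the other settings and then with 1 array left out, were 9 in uMT versus WT (0 to 53, 0 to 9), 27 in MLN versus PLN (16 to 61, 2 to 24), 4 in Sca1p versus Sca1m (0 to 11, 0 to 173), 90 between naive genotypes (10 to 115, 25 to 213), 0 in PLN (0 to 12, 0) and 0 for the excess (0 to 23, 0). Blocks of matched arrays, which could not be fitted for MLN versus PLN, gave no call among members. No paired analysis by replicate number was possible because each knockout group holds 1 array. Dim probes limit Ly6f, Ly6i and Ly6h.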
